A study of Mus musculus with 15 samples.

Results

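Genes for calcium and pacemaker channel subunits of the heart were examined: Cacna1c, Cacna1d, Cacna1g, Cacna1h, Cacna2d1, Cacnb2, Hcn2 and Hcn4. The members were all probe sets annotated to exactly 1 of these symbols, which gave 15 of the 45101 probe sets on the array and 7 of the 8 genes. Hcn4 had no such probe set and was left out. Total RNA of whole hearts was measured on 1-colour Affymetrix arrays, 1 array per male mouse, all aged 10 weeks per the labels. The 8 control mice carried no Lmna substitution that the labels name, and the 7 others were heterozygous for Lmna H222P, an amino acid substitution in lamins A and C of the nuclear envelope. The labels give neither the strain nor the wording of the controls' genotype, nor whether any of the mice were littermates, so the p-values reflect only how much these samples vary, which may be technical.

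Voltage-gated calcium channels open when the membrane depolarises and let calcium into the cell. In heart muscle the L-type channel carries the calcium entry that sets off each contraction, and T-type channels open at more negative voltages and are known from the sinoatrial node, the conduction system and the fetal heart. A pore-forming subunit is joined by a cytoplasmic beta subunit and a largely extracellular alpha-delta subunit, which promote its delivery to the membrane and adjust its gating. HCN channels open on hyperpolarisation, are bound directly by cyclic AMP and carry the pacemaker current of the sinoatrial node.

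The tables used here do not place the probe sets along the genes, so transcripts that begin at different promoters were not told apart. RefSeq annotation of assembly GRCm38.p6 gave 10 promoter windows for 6 of the 8 genes, Hcn4 among them and not Cacna1g or Cacna1h. The 250 bases before each of the 3 annotated starts of Cacna1c are printed here because Cacna1c was the gene with more than 1 tested probe set in which all of them were higher in heterozygous hearts. They run 5′ to 3′ on the coding strand, and capitals mark each CG dinucleotide.
Cacna1c, chr6:119196410-119196659, minus strand: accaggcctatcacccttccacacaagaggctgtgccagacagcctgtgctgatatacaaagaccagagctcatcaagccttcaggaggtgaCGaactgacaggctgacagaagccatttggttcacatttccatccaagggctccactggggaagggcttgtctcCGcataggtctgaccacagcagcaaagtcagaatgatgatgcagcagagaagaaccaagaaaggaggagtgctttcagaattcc
Cacna1c, chr6:119108496-119108745, minus strand: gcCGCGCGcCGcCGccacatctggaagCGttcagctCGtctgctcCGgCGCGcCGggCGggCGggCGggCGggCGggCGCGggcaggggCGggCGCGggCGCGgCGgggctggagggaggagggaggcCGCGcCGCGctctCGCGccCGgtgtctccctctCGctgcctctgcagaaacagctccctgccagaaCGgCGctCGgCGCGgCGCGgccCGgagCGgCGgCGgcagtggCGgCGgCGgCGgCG
Cacna1c, chr6:118757975-118758224, minus strand: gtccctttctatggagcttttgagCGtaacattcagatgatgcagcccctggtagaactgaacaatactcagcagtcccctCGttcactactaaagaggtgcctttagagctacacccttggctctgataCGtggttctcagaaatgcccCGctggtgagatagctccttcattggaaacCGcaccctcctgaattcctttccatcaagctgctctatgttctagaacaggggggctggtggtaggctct
The windows differed sharply in CG content. The middle window held 48 CG dinucleotides, more than 99.8% of the 32851 windows in the table, while the one listed first held 2 and the one listed last 5, against a median of 6. Each of the 6 member genes had at least 1 window with 16 or more CG dinucleotides, the highest counts per gene lying between 16 (Hcn2) and 50 (Cacna1d), and 25.4% of all windows reach 16. The GC box GGGCGG, on either strand, was found in 6 of the 10 member windows, 1 for each gene, and in 32.7% of all windows. The letters TATAAA, on either strand, were found in 1 of the 10, a window of Cacna1d with 2 CG dinucleotides, and in 12.4% of all windows. A match is a run of letters and no measured binding site.

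None of the channel genes passed the test. Testing required a log2 signal above 4 on 7 or more arrays of either group, which kept 14 of the 15 member probe sets and left out a dim one of Cacna1h. With limma's moderated test and Benjamini-Hochberg adjustment over all 38870 tested probe sets, 0 of the 14 passed an adjusted p of 0.05, where 0.252% of all tested probe sets passed, 0.09% higher and 0.162% lower in heterozygous hearts. That split of calls over all probe sets, 35 higher and 63 lower as deposited, depended on the scaling: it was 51 and 14 with each array centred on its median and 37 and 28 with quantile normalization. Adjusted p ranged from 0.214 to 0.981, and a rank sum test also passed 0 of the 14, with 4 at an unadjusted p under 0.05. At an unadjusted p under 0.05 there were 4 of the 14, beside 14.6% of all tested probe sets. Of these 2 were higher in heterozygous hearts, beside 4.44% of all, and 2 lower, beside 10.1%. These 4 were both probe sets of Cacna1c, 1 of 2 of Cacna1d and 1 of 5 of Cacna2d1. In none of the 14 did the groups separate completely, as they did in 0.468% of all tested probe sets. Of the 14 differences 7 were below 0 and 7 above, with a median of -0.01 (log2), beside 60.1% below 0 and a median of -0.11 over all tested probe sets. The sign of a small difference depended on the scaling: with each array centred on its median the split was 4 below and 10 above, with the median of all tested probe sets at 0.10, and with quantile normalization it was 8 below and 6 above.

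**Figure D1:**
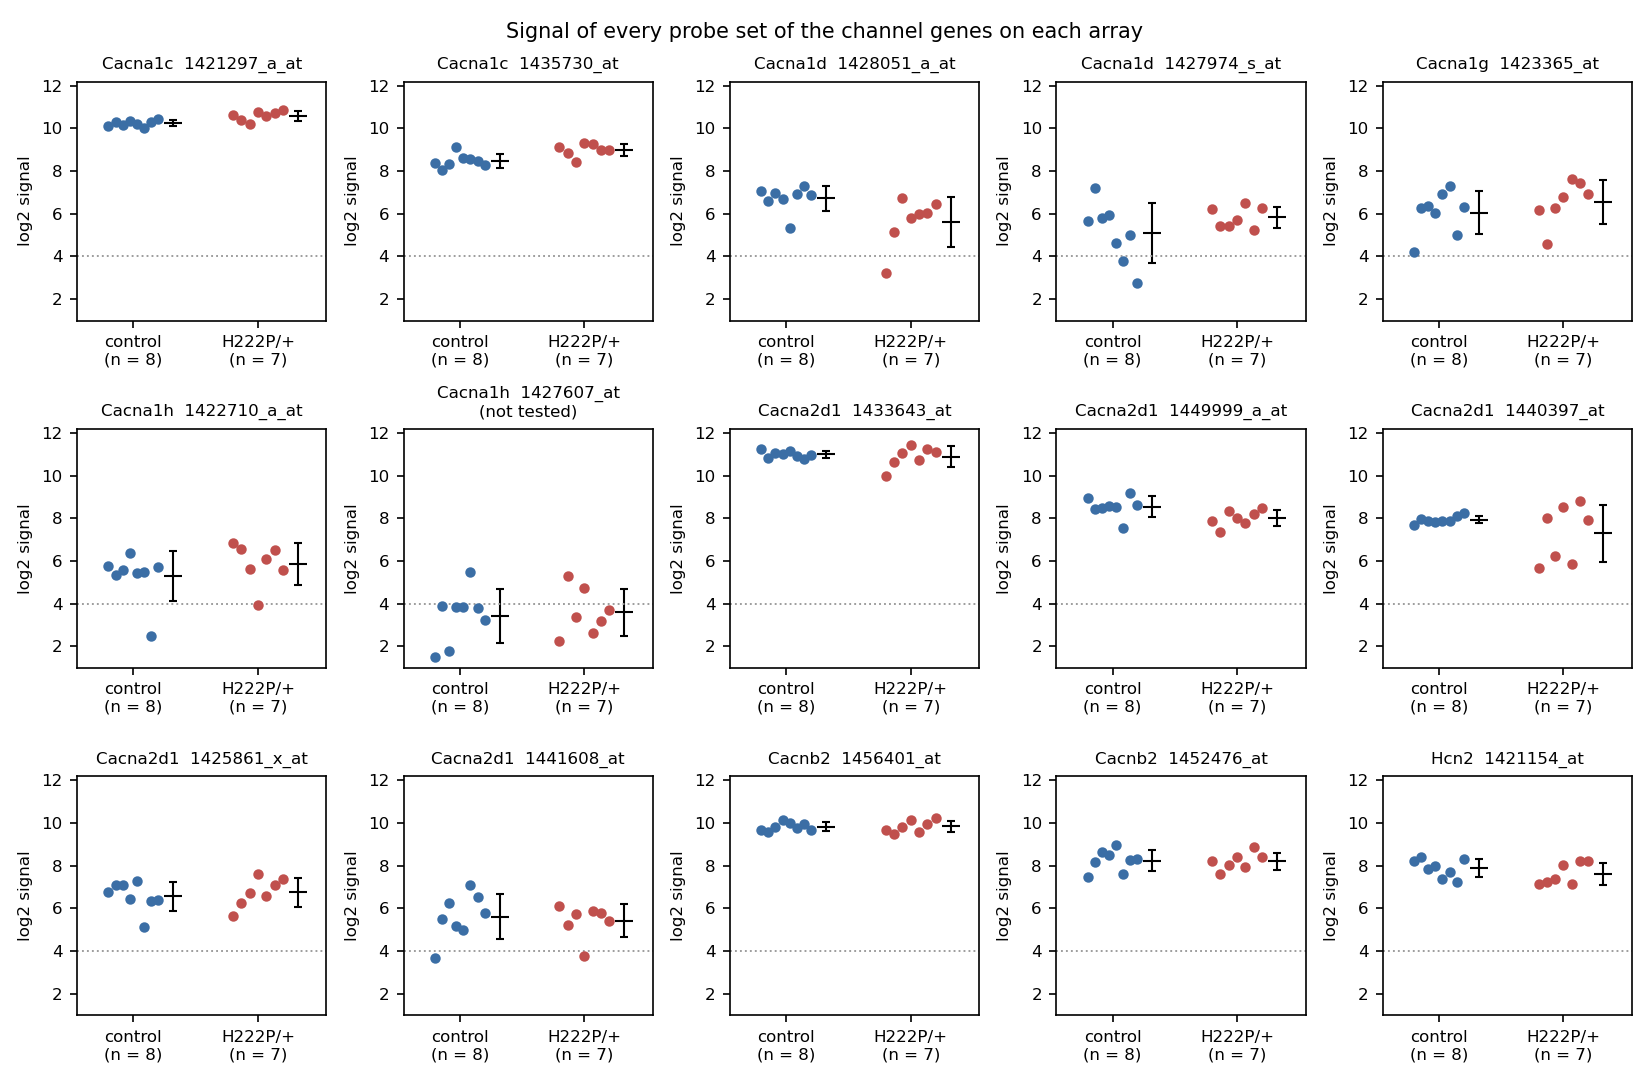
Log2 signal of the 15 member probe sets on each array, in 8 control (blue) and 7 heterozygous (red, H222P/+) hearts. Each point is 1 array, the black bar beside each group is the mean ± SD, and the dotted line is the filter at a log2 signal of 4; the groups overlap in every panel.

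Array signals depend on the probes, so levels were not compared between probe sets. Of the 10 genes on the ventricular marker list, Myl2 and Myh6 were bright, with control geometric means of 31763 and 29291 units. The list had a mean log2 signal of 11.01 to 11.72 on control and 11.08 to 11.75 on heterozygous arrays. None of the 10 passed limma's test. At an unadjusted p under 0.05, 1 was higher (Myh7, ratio 3.61) and 1 lower (Hand1, ratio 0.441), beside 15.2% of all named genes. Atrial markers differed between the groups, with a list mean of 8.25 to 9.69 in control and 9.52 to 10.54 in heterozygous hearts over 12 tested genes. Of the 12, 3 passed, all higher: Sln, Myl7 and Myl4. Over all 16627 named genes 17 passed higher and 31 lower. The atrial list was not uniform, with 8 genes above 0 and 4 below. Kcna5 was among the 4, at 0.651 of control with an unadjusted p of 0.00588 in limma. Control array 6 stood at 9.69, inside the heterozygous range. The mean of the erythroid and blood list did not overlap between the groups, at 7.97 to 8.68 in control and 7.43 to 7.81 in heterozygous hearts. Single probe sets did so in 0.468% of all tested. Of its 7 tested genes 2 passed, Ppbp and Alas2, both lower. The fall was not uniform. Ptprc was above 0, and Pf4 and Hba-a1 had adjusted p of 0.776 and 0.801 in limma. In the brightest tested probe set of each gene, all 8 fibroblast markers were above 0, beside 58.5% of all named genes below 0. Of the 8, 4 had an unadjusted p under 0.05 without passing, beside 15.2% of all named genes. With the probe sets of each gene averaged, 2 of the 8 were below 0. The list mean was 10.12 to 10.50 in control and 9.84 to 11.22 in heterozygous hearts. The part of blood and fibroblasts in the channel gene values was not tested. In whole-organ RNA, fewer cells of a type and less RNA per cell cannot be told apart.

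The pore-forming subunit of the main cardiac L-type channel, encoded by Cacna1c, was read by 2 probe sets, and both were brighter in heterozygous hearts without passing the test. In probe set 1421297_a_at the controls spanned 1040.1 to 1376.3 signal units with a median of 1213.8, and the heterozygous hearts 1165.7 to 1868.8 with a median of 1572.8. Heterozygous arrays 1, 4, 5, 6 and 7 lay above every control, while arrays 2 and 3, at 1353.5 and 1165.7, lay within the control range. The mean log2 signals were 10.24 ± 0.14 (SD, n = 8) and 10.60 ± 0.24 (SD, n = 7), a ratio of 1.28 with a 95% interval of 1.06 to 1.56 and limma's adjusted p = 0.240. In probe set 1435730_at the controls spanned 268.8 to 568.5 units with a median of 339.9, and the heterozygous hearts 349.5 to 636.7 with a median of 515.3. All 7 heterozygous arrays lay above the control median, but only arrays 4 and 5 lay above control array 4, the brightest control at 568.5. The ratio was 1.43 with a 95% interval of 1.10 to 1.86 and limma's adjusted p = 0.214, the smallest among the members. Heterozygous array 3 was the lowest of its group in both probe sets.

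A measure of RNA quality varied between the arrays. The log2 difference between the 3′ and 5′ control probe sets of Actb, the beta-actin gene, was 0.29 to 1.23 on control and 0.33 to 1.69 on heterozygous arrays. The 4 steepest arrays were heterozygous 2, 3 and 5 and control 6, and the 2 dimmest heterozygous arrays of 1421297_a_at were 2 of them. Without these 4 arrays, a choice made after seeing the data, the log2 differences of the 2 probe sets were 0.48 and 0.64, beside 0.36 and 0.52 with all arrays, and neither passed (limma's adjusted p = 0.162 and 0.202). Smooth muscle also depends on this L-type pore. Of its 6 marker genes 5 were above 0, beside 58.5% of all named genes below 0. Of the 6, 4 had an unadjusted p under 0.05, all higher, beside 15.2% of all named genes in either direction. None of them passed, and the mean log2 signal of the list was 7.55 to 8.54 in control and 8.28 to 8.91 in heterozygous hearts. The part of smooth muscle in the Cacna1c values was not tested. With the atrial mean of each array as a covariate, the 2 differences of Cacna1c were 0.58 and 0.45. Their SE were 0.27 and 0.38, beside 0.13 and 0.18 without it. The atrial mean differed largely by group, at 8.25 to 9.69 in control and 9.52 to 10.54 in heterozygous hearts. A fit with this covariate therefore cannot separate it well from genotype.

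The genes whose signals most resembled that of Cacna1c probe set 1421297_a_at were sought among 16626 others, each by its brightest tested probe set. The group means were taken away first. The other Cacna1c probe set correlated with it only at r = 0.405 and rho = 0.232. Within groups 1421297_a_at also had r = -0.745 with the Actb ratio, and the other probe set -0.271. The part of RNA quality in the search was not tested. The nearest 3 were the mitochondrial enzyme gene Suclg2 (Pearson r = 0.854, Spearman rho = 0.800), the endothelial cadherin gene Cdh5 (0.850 and 0.739) and the transcription factor gene Nfib (0.848 and 0.768). These are the top of a search over 15 arrays, each array giving both values of a pair, so they are a description only.

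The other L-type pore gene, Cacna1d, known from the sinoatrial node and atria, gave opposite differences in its 2 probe sets. In 1428051_a_at the controls spanned 41 to 159.8 units with a median of 119, and the heterozygous hearts 9.3 to 107.4 with a median of 63. All 7 heterozygous arrays lay below the control median. Array 1, at 9.3, and array 2, at 34.9, were below every control, and control array 5, at 41, was the lone low control. The geometric means were 106.0 and 49.5 units, a ratio of 0.467 with a 95% interval of 0.241 to 0.904 and limma's adjusted p = 0.282. In 1427974_s_at the controls spanned 6.8 to 149.6 units and the heterozygous hearts 37.9 to 92.4, so every heterozygous array lay inside the control range. That ratio was 1.66 with a 95% interval of 0.768 to 3.60 and limma's adjusted p = 0.540. With a floor that raised every weaker signal to a log2 of 6, the 2 log2 differences of -1.10 and 0.73 became -0.63 and -0.01 without passing. With the atrial mean as a covariate they became -2.10 and 1.48, also without passing. Their SE were then 0.91 and 1.09, beside 0.45 and 0.52 without it. Without heterozygous array 1 the first was -0.70, and without control array 8 the second was 0.40.

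Cells of the pacemaker and conduction system were looked for through 14 markers, of which 11 genes were tested. The list mean was 6.46 to 7.11 in control and 6.18 to 6.61 in heterozygous hearts, 9 of 11 genes were below 0, none passed and 3 had an unadjusted p under 0.05, all lower: Ntm, a cell adhesion gene, Isl1, a transcription factor of the sinoatrial node, and Cntn2, an adhesion gene of conduction cells. Over all named genes 58.5% were below 0 and 15.2% had an unadjusted p under 0.05. Both scaling alternatives, centring and quantile normalization, left 1 of the 11 at an unadjusted p under 0.05. Isl1 was a weak signal, with geometric means of 21.6 and 10.1 units. Among the 3 other tested probe sets of Cntn2, 2 were above 0, by a log2 of 1.05 and 0.93, and 1 below, by -0.46, none passing. The one at 1.05 had an unadjusted p of 0.0197 in limma, smaller than the 0.0444 of the brightest, which was lower. These counts took the brightest tested probe set of each gene. With the probe set of smallest p instead, 1 gene was higher and 2 lower at an unadjusted p under 0.05. With the probe sets of each gene averaged, 7 of the 11 were below 0. With arrays centred on their median, which raised every difference by the same amount, 6 of the 11 were below 0. The median difference of the list was -0.31 on the deposited scale, beside -0.08 over all named genes. After centring it was -0.11, beside 0.10 over all tested probe sets (-0.11 as deposited). How far this list and the Cacna1d difference share a source was not tested.

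**Figure D2:**
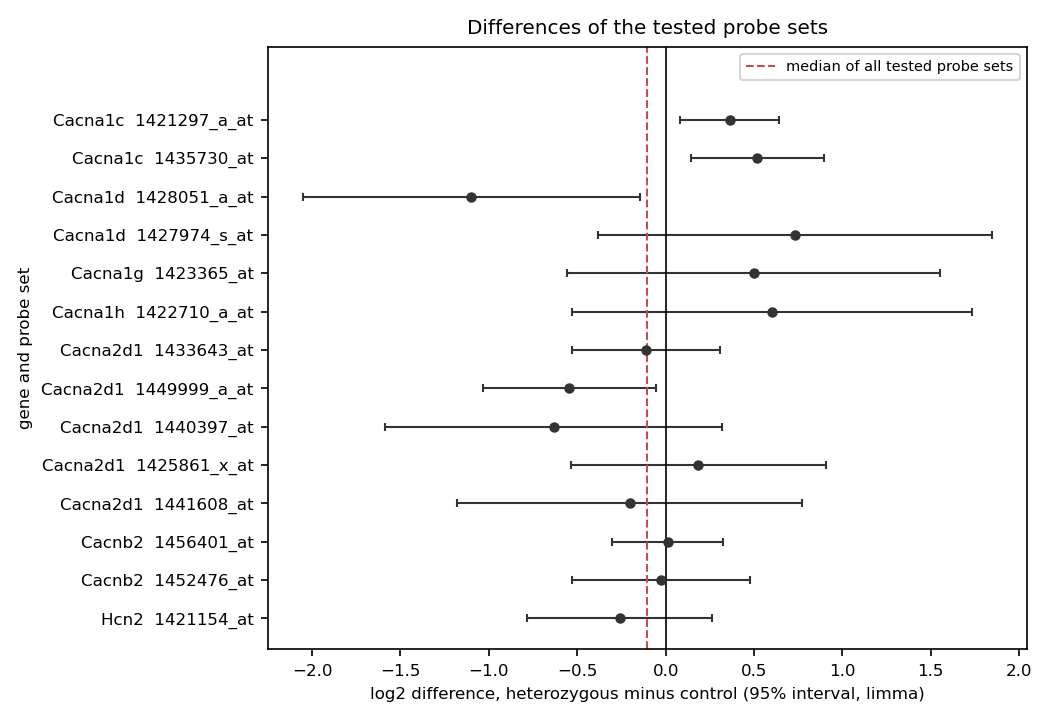
Log2 difference between heterozygous and control hearts for the 14 tested member probe sets, with limma's 95% interval. The dashed red line is the median of all 38870 tested probe sets, -0.11; the intervals of both Cacna1c probe sets lie above 0 and those of 1 probe set each of Cacna1d and Cacna2d1 lie below 0, and none passed after adjustment.

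T-type pores were weak signals with wide spreads. Cacna1g, read by 1423365_at, spanned 18.3 to 157.4 units in control hearts with a median of 77.9, and 24.1 to 200.4 in heterozygous hearts with a median of 110.6. Heterozygous arrays 5 and 6, at 200.4 and 172.7, lay above every control, while heterozygous array 2, at 24.1, lay near the lowest control. The ratio was 1.41 with a 95% interval of 0.680 to 2.94 and limma's adjusted p = 0.676. With the atrial mean as a covariate, which largely moved with genotype, the log2 difference of Cacna1g turned from 0.50 to -1.08. Its SE rose from 0.495 to 0.943, and it did not pass there either (limma's adjusted p = 0.813). Without control array 1 the difference was 0.23. Cacna1h, read by 1422710_a_at, spanned 5.6 to 82.1 units in control and 15.2 to 116.7 in heterozygous hearts. Its heterozygous arrays 1, 2 and 6 lay above every control, and control array 7, at 5.6, and heterozygous array 4, at 15.2, stood well below the rest of their groups. The ratio was 1.52 with a 95% interval of 0.692 to 3.33 and limma's adjusted p = 0.629, and the log2 difference of 0.60 became 0.25 with a floor at a log2 of 6 and 0.20 without control array 7. The second probe set of Cacna1h, 1427607_at, exceeded the filter on 3 of 15 arrays and was not tested; its geometric means were 10.7 and 12.1 units. The intervals of both genes include 1 and do not exclude a rise of up to 2.94-fold for Cacna1g or 3.33-fold for Cacna1h.

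Cacna2d1 encodes the largely extracellular auxiliary subunit that binds gabapentin, and its 5 probe sets did not move together. The brightest, 1433643_at, spanned 1776.4 to 2464.4 units in control and 999.6 to 2804.7 in heterozygous hearts, with medians of 2043.5 and 2124.6. Heterozygous array 1 was the lowest of all, array 4 the highest, and the ratio was 0.927 with a 95% interval of 0.694 to 1.24 (limma's adjusted p = 0.832). A lower signal appeared in 1449999_a_at, with 186.2 to 580.9 units in control and 165.7 to 354.8 in heterozygous hearts and medians of 376 and 255.5. All 7 heterozygous arrays lay below the control median, but control array 6, at 186.2, lay below 6 of them. The ratio was 0.686 with a 95% interval of 0.489 to 0.961 and limma's adjusted p = 0.296. With the atrial mean as a covariate its log2 difference of -0.54 became 0.29, with an SE of 0.42 beside 0.23 without it. Without control array 6 the difference was -0.69 with an adjusted p of 0.167 in limma.

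The third probe set of Cacna2d1, 1440397_at, was tight in control hearts and split in heterozygous ones. The 8 controls lay between 207.5 and 301.9 units. Heterozygous arrays 1, 3 and 5, at 51.2, 74.6 and 58.8, lay far below them, arrays 2 and 7, at 259.6 and 239.8, among them, and arrays 4 and 6, at 375.7 and 455.1, above them. The SD of log2 signal was 0.17 in control and 1.33 in heterozygous hearts, and 2.60% of the 1000 probe sets nearest in brightness had a larger spread within groups. The ratio of geometric means was 0.645 with a 95% interval of 0.333 to 1.25 and limma's adjusted p = 0.537, so the mean difference was within this spread. Heterozygous arrays 3 and 5 were among the 4 arrays with the steepest Actb ratio and array 1, at 0.42, was not. The other 2 of those 4, heterozygous array 2 with the steepest ratio and control array 6 at 232.3 units, lay within the control range. The part of RNA quality in this split was not tested. The remaining 2, 1425861_x_at and 1441608_at, had ratios of 1.14 and 0.869, adjusted p of 0.834 and 0.870 with limma, and overlapping groups.

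The beta subunit gene Cacnb2 had ratios near 1 in both of its probe sets. In its brighter probe set, 1456401_at, the controls spanned 773.5 to 1139.2 units with a median of 890.9 and the heterozygous hearts 722.6 to 1196.5 with a median of 907.9. The 2 groups covered nearly the same range. The ratio was 1.01 with a 95% interval of 0.810 to 1.25 and limma's adjusted p = 0.981. The other, 1452476_at, gave 177.1 to 492.9 units in control and 196.6 to 462.6 in heterozygous hearts, with a ratio of 0.982, a 95% interval of 0.693 to 1.39 and limma's adjusted p = 0.972. The interval of the brighter probe set excludes a rise of more than 1.25-fold and a fall to less than 0.810 of control on the deposited scale. After centring on the array median the log2 difference of that probe set was 0.22 (SE 0.20), beside 0.01 (SE 0.15) as deposited. These bounds therefore do not carry over to the centred scale. The median of all tested probe sets moved likewise, from -0.11 to 0.10.

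The pacemaker channel gene Hcn2 had 1 probe set, 1421154_at. The controls spanned 152.1 to 337.1 units with a median of 242.4, and the heterozygous hearts 139.7 to 299.2 with a median of 166.5. Heterozygous arrays 1, 2 and 5, at 141.0, 148.8 and 139.7, lay just below the lowest control, array 3, at 166.5, lay near it, and arrays 4, 6 and 7 lay between 263.8 and 299.2. The geometric means were 236.0 and 196.9 units, a ratio of 0.835 with a 95% interval of 0.581 to 1.20 and limma's adjusted p = 0.656. Without the 4 arrays of steepest Actb ratio its log2 difference was -0.0016, beside -0.26 with all arrays. The main sinoatrial pacemaker channel gene, Hcn4, was not analysed here.

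**Figure D3:**
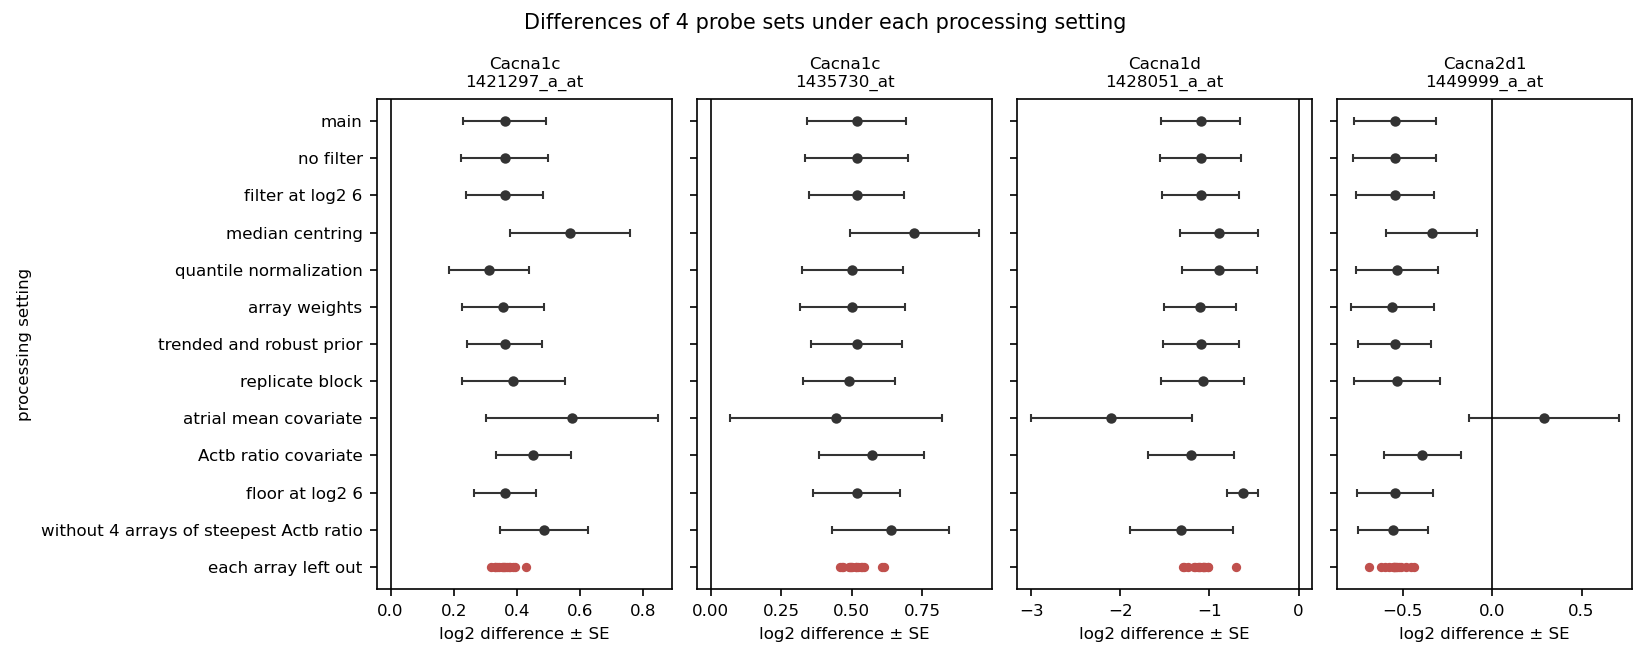
Log2 difference of the 4 member probe sets with an unadjusted p under 0.05, under each processing setting, with limma's SE as bars (black); the red points leave out each of the 15 arrays in turn. Cacna1c stays above 0 and Cacna1d probe set 1428051_a_at below 0 in all settings drawn, and Cacna2d1 probe set 1449999_a_at turns above 0 with the atrial mean as a covariate.

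Other genes of the channel families were described by 1 probe set per gene, the brightest one tested. Of 20 further calcium channel subunit genes 18 were tested and none passed limma's test. Of the 18, 2 had an unadjusted p under 0.05 (11.1%), beside 15.2% of all 16627 named genes. Below 0 were 13, with a median difference of -0.49, beside 58.5% and a median of -0.08 over all named genes. After centring 12 of the 18 were below 0 with a median of -0.28, beside a median of 0.10 over all tested probe sets. The smallest p values belonged to Cacna2d4, another alpha-delta subunit gene, and Cacng4, a gamma subunit gene of the heart, both lower, followed by Cacna1f, the L-type pore of the retina. Cacna2d4 spanned 65.4 to 163.1 units in control and 4.60 to 143.5 in heterozygous hearts, which gave a ratio of 0.298 (limma's adjusted p = 0.186). Cacng4 spanned 111.9 to 151.4 units in control and 42 to 147.7 in heterozygous hearts, which gave a ratio of 0.588 (limma's adjusted p = 0.201). Cacna1f had geometric means of 114.1 and 69.9 units and an adjusted p of 0.345 in limma. Most of these genes are known from nerve or skeletal muscle, and their signals here were weak: 13 of the 18 had a geometric mean under 100 units in both groups. The second tested probe set of Cacna2d4 differed by a log2 of -0.27 and that of Cacng4 by -0.65, neither passing. Marker lists of nerve and skeletal muscle overlapped between the groups: the mean log2 signal was 5.38 to 6.65 in control and 5.44 to 6.05 in heterozygous hearts over 10 tested nerve genes, and 4.88 to 6.86 and 5.19 to 7.02 over 8 skeletal muscle genes, with none passing. Hcn3 was the lone tested HCN gene outside the members, at 26.8 and 13.8 units with an adjusted p of 0.491 in limma.

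**Figure D4:**
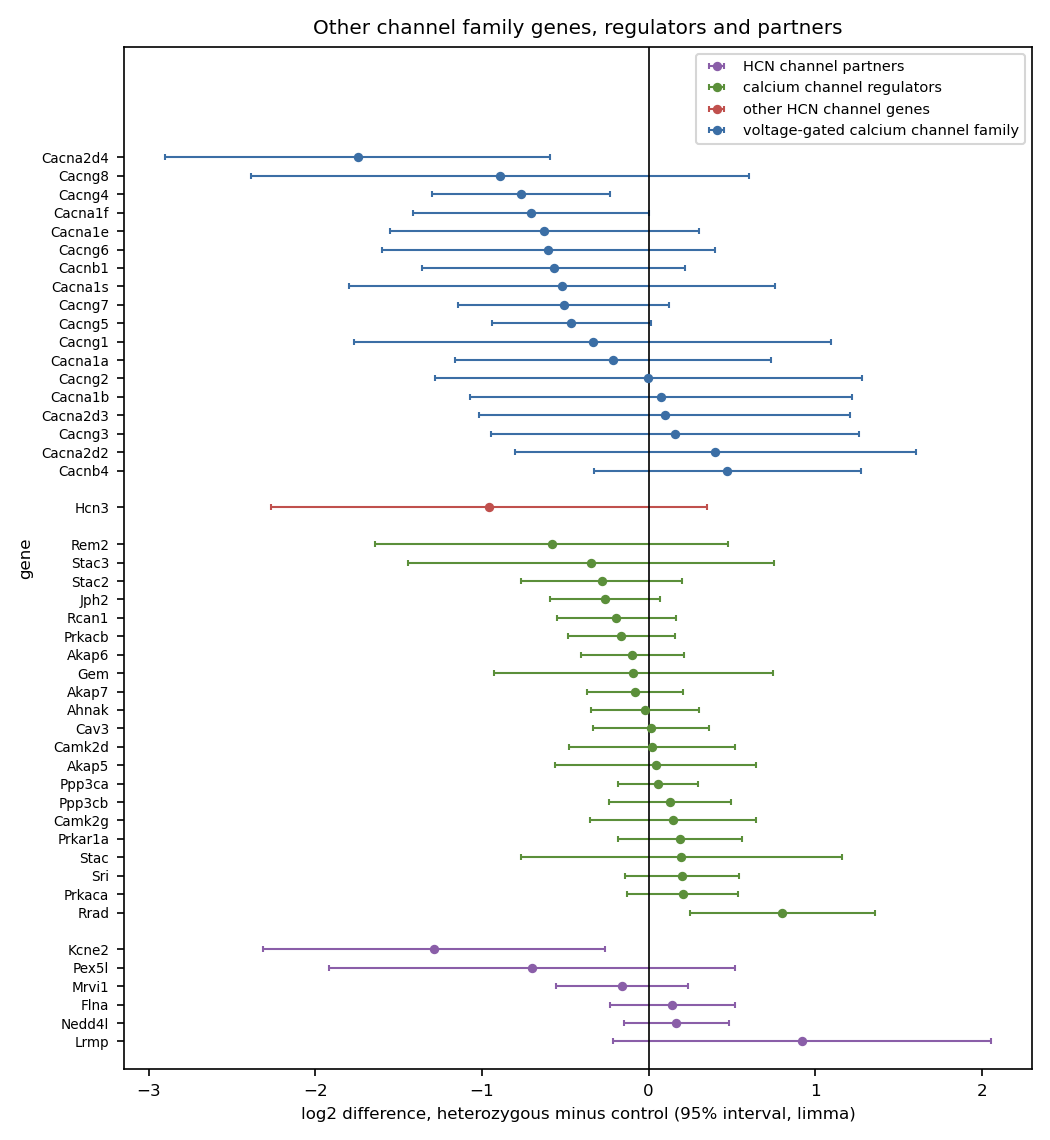
Log2 difference with limma's 95% interval for the brightest tested probe set of other calcium channel subunit genes (blue), Hcn3 (red), calcium channel regulators (green) and HCN channel partners (purple), 8 control against 7 heterozygous hearts. Of the 46 genes, Cacna2d4, Cacng4 and Kcne2 have intervals wholly below 0 and Rrad one wholly above 0, and none passed after adjustment.

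Among 25 regulators of calcium channels 21 genes were tested and none passed limma's test. Of the 21, 1 had an unadjusted p under 0.05, beside 15.2% of all named genes. Below 0 were 10 and above it 11, beside 58.5% of all named genes below 0. The median difference was 0.01, beside -0.08 over all named genes. After centring on the array median, which raised every difference by the same amount, 4 were below 0 and 17 above. The median was then 0.22, beside 0.10 over all tested probe sets. An unadjusted p under 0.05 was then found for 2 genes, beside 6061 of all 38870 tested probe sets. Rrad, a small GTPase that binds beta subunits and restrains L-type current, had the smallest p among the brightest probe sets. Its signals spanned 836.2 to 1726 units in control and 1182 to 3682.6 in heterozygous hearts, a ratio of 1.74 with a 95% interval of 1.19 to 2.56 and limma's adjusted p = 0.199. Jph2, which holds the junction between the surface membrane and the sarcoplasmic reticulum, stood at 0.835 of control (adjusted p = 0.460 in limma) in its brightest probe set and at 0.587 (adjusted p = 0.194) in another. That other probe set had the smallest p of the whole list. With the probe set of smallest p per gene, 2 genes were higher (Rrad and Ahnak) and 2 lower (Jph2 and Akap7) at an unadjusted p under 0.05. That choice favours small p, and its share over all named genes was not computed. Prkaca, a catalytic subunit of protein kinase A, had a ratio of 1.15 (adjusted p = 0.570 in limma). The kinase gene Camk2d, at 924.7 and 938.7 units, and the caveolar gene Cav3, at 789.4 and 796.8, were nearly equal in the groups. Of 7 HCN channel partners 6 were tested, none passed limma's test and 1 had an unadjusted p under 0.05, beside 15.2% of all named genes. With the probe set of smallest p per gene, 1 partner was higher and 2 lower at that level. Kcne2, an auxiliary subunit of HCN and potassium channels, spanned 22.4 to 102.2 units in control and 4.50 to 60.4 in heterozygous hearts, which gave a ratio of 0.409 (limma's adjusted p = 0.250). Lrmp and Pex5l, whose proteins bind HCN channels, had log2 differences of 0.92 and -0.70 with adjusted p of 0.445 and 0.601 in limma, both on weak signals. Another probe set of Pex5l had the smallest p of this list, with geometric means of 65.6 and 28.3 units, a log2 difference of -1.21 and an adjusted p of 0.163 in limma.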

How the data were processed

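Total RNA of 15 male mouse hearts, 8 control and 7 heterozygous, was labelled with biotin and hybridised to Affymetrix arrays, per the labels' protocols. The authors deposited intensities, 1 linear signal per probe set; GCRMA is named, without a version, in the submitters' processing notes. They did not look like GCRMA output: they ran from 0.1 to 80754.9, and the mean after trimming 2% at each end was 250 on every array. Weak signals therefore scatter widely, and how they were summarised stays unknown. Array medians lay between 56.7 and 94.2 units, so a common scaling can shift the typical probe set. Arrays have no count behind a signal, and their number limits the precision.

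Probe sets took genes from the platform annotation: of 45101, 34958 had 1 symbol, 932 several and 9211 none. Of the 34958, 34754 were found by gene identifier in the RefSeq table of GRCm38.p6, which changed no symbol. Signals were log2-transformed with no pseudocount, and the 64 Affymetrix control probe sets were not tested. The test was a two-sided lmFit and eBayes fit of limma 3.58.1 under R 4.3.3 with genotype as its term, adjusted over 38870 probe sets. The code was tested on simulated data. Member values are given for every probe set; of the other lists, up to 3 genes with the smallest p were named, while Camk2d, Cav3 and second probe sets were picked with their values in view. Members and lists were chosen with earlier results of these data known. Figures were drawn with matplotlib 3.10.9 under Python 3.11.15. The alternatives are in the closing section.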

Additional observations from a re-analysis of the deposited data

Results flagged for a closer look

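In groups of 7 or 8 arrays, an array was singled out where its gap to the nearest other array, on the log2 scale, was large against the group's range (Dixon's 95% value); chance does this in about 1 of 20 groups. Among 28 groups of tested member probe sets it happened in 5. Control array 6 was low in 2 probe sets of Cacna2d1, at 186.2 units in 1449999_a_at with the next control at 352.6, and at 35.1 in 1425861_x_at with the next at 82.1. Control array 5 was low in Cacna1d 1428051_a_at, at 41 units with the next at 98.3. Control array 7 was low in Cacna1h 1422710_a_at, at 5.60 units with the next at 40.9. Heterozygous array 4 was low in Cacna2d1 1441608_at, at 13.8 units with the next at 37.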

How the results depend on the processing

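No member probe set passed under any of the 27 alternative settings, 15 of which left out 1 array each. Of 375 pairs of a tested member probe set and a setting, 347 kept their direction and side of the threshold and 28 reversed, none of them passing. The smallest adjusted p of any member was 0.102, for Cacna1c 1421297_a_at with a floor at a log2 of 6. Both Cacna1c probe sets stayed above 0 throughout, between 0.31 and 0.72. Reversed log2 differences were as follows. Centring on the median gave 0.10 for Cacna2d1 1433643_at, 0.0024 for Cacna2d1 1441608_at and 0.18 for Cacnb2 1452476_at. Quantile normalization gave -0.027 for Cacnb2 1456401_at. Array weights gave 0.0016 and the Actb ratio as a covariate 0.19 for Cacnb2 1452476_at. The atrial mean as a covariate gave -1.08 for Cacna1g, 0.29 for Cacna2d1 1449999_a_at and 0.50 for Cacnb2 1452476_at. That covariate largely moved with genotype, and the SE of each of these was larger with it. The floor gave -0.0099 for Cacna1d 1427974_s_at, and leaving out the 4 arrays of steepest Actb ratio, added after seeing the data, 0.15 for Cacnb2 1452476_at. The cause was not tested.

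Leaving out each array in turn gave ranges of -0.053 to 0.068 for Cacnb2 1456401_at, -0.14 to 0.075 for Cacnb2 1452476_at, -0.020 to 0.37 for Cacna2d1 1425861_x_at, -0.48 to 0.068 for Cacna2d1 1441608_at, -0.20 to 0.044 for Cacna2d1 1433643_at, 0.20 to 0.93 for Cacna1h, 0.23 to 0.83 for Cacna1g, and -1.30 to -0.70 and 0.40 to 1.04 for the 2 probe sets of Cacna1d. Over all tested probe sets, 98 passed as reported and 17 to 150 with an array left out, the lowest without control array 7 and the highest without heterozygous array 7. The count was 192 with the filter at a log2 of 6, 65 after centring (51 higher), 65 after quantile normalization (37 higher), 312 with a trended and robust prior, 287 with the floor, 0 with the atrial covariate (3030 at an unadjusted p under 0.05 in limma) and 0 with the rank sum test (4933 at an unadjusted p under 0.05). The replicate number as a block, which drops control array 8, left 1 probe set and gave -0.012 for Cacnb2 1456401_at. In a check of pairing, same-numbered arrays correlated between -0.06 and 0.06, and 1 of 7 correlated best with its own number. No pairing by number showed there, but so few pairs cannot exclude a shared litter or day. The 3 widest intervals of the members were those of Cacna1h, Cacna1d 1427974_s_at and Cacna1g, all weak signals.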
